A study of Mus musculus with 9 samples.

Results

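The p53 pathway was described through 34 genes of the 24330 in the deposited expression table, p53 itself with its regulators and the genes it is known to switch on. They were chosen by name, with earlier results of these data in view, so that the values below describe these genes and test nothing. By their known roles they were 5 regulators and feedback genes, 8 genes of cell cycle arrest and division, 12 of cell death, 5 of DNA repair and nucleotide supply, and 4 of stress, secretion and metabolism. The study asked how embryos without SR-B1, the HDL receptor encoded by *Scarb1*, differ when the neural tube closes and when it fails to close. RNA came from whole E9.5 embryos in 3 groups of 3 samples: KO-NTD (SR-B1 knockout with a neural tube defect), KO-N (SR-B1 knockout of normal appearance) and WT (wild type). All 9 samples were of the strain C57Bl/6J x 129S2, each a pool of 3 embryos labelled female, and the study took them from crosses between heterozygous parents. The knockout is carried in the germ line, and RNA of a whole embryo mixes all its tissues.

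The transcription factor p53 is made at all times and kept low by the ubiquitin ligase Mdm2 and its partner Mdm4. DNA damage and other stresses free p53 from them, mostly by changing the protein and not its mRNA, and p53 then switches on genes that halt the cell cycle, repair DNA, trigger death or, as *Mdm2* does, feed back on p53. In mouse embryos both too much and too little p53 are known to disturb neural tube closure. How much its targets are transcribed is a common measure of how active p53 is, although most of them also answer to other factors.

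The p53 protein binds DNA as a tetramer at a site made of a pair of half-sites of 10 bases each. The half-site pattern reads the same on both strands, so that 1 search covered both. RefSeq promoter windows of the GRCm38.p6 build, the same assembly as mm10, were searched from 250 bases before to 50 bases after each transcript start. Of the 34 genes, 26 had a window, and 5 of these held a full site of 20 bases with at most 1 mismatch and at most 1 spacer base. Over all 27025 genes with a window, 0.211% held a full site. An exact half-site, which can lie inside a full one, stood in the windows of 11 of the 26 genes and in 9.55% of all genes. The genes were picked as p53 targets, many of which became known through such sites, and a match is a stretch of letters and not a measurement of binding. The sites are shown because 4 of these 5 genes stand for the different responses described below, *Cdkn1a* and *Ccng1* with higher values in KO embryos, and *Gtse1* and *Polk* with nearly the same values in all of them. Each is given 5′ to 3′ on the strand of the gene, with the half-sites in capitals and a spacer base, where there is one, in lower case between them. Positions are counted from the RefSeq transcript start whose window holds the site, with no position 0. *Cdkn1a*, *Polk* and *Gtse1* each have another RefSeq start, whose window holds neither a full site nor an exact half-site.

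*Cdkn1a*, chr17:29090908-29090967, plus strand, site at -51 to -32: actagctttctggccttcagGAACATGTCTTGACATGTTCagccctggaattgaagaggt
*Ccng1*, chr11:40755442-40755501, minus strand, site at -195 to -176: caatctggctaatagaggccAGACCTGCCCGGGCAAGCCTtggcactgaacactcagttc
*Bax*, chr7:45467070-45467130, minus strand, site at -212 to -192: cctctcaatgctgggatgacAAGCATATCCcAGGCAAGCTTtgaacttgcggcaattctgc
*Polk*, chr13:96519378-96519437, minus strand, site at -231 to -211: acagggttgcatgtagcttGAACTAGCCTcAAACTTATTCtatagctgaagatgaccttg
*Gtse1*, chr15:85859955-85859975, plus strand, site at 10 to 30: GGGCTTGCCTcTGACTTGCCT

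The same *Gtse1* window held another full site at -1 to 19, which shares a half-site with the one printed. Only an exact half-site was found for *Trp53*, *Mdm2*, *Aen*, *Ei24*, *Gadd45a* and *Sesn1*. Of the genes with a fold past the threshold in any comparison below, *Eda2r*, *Phlda3*, *Plk3*, *Ak1* and *Ier3* held neither in any of their windows. That says only that these letters are not in these windows. *Zmat3*, *Ddb2*, *Tnfrsf10b*, *Perp*, *Trp53inp1*, *Pmaip1*, *Rrm2b* and *Xpc* had no window in the table used.

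**Figure D1:**
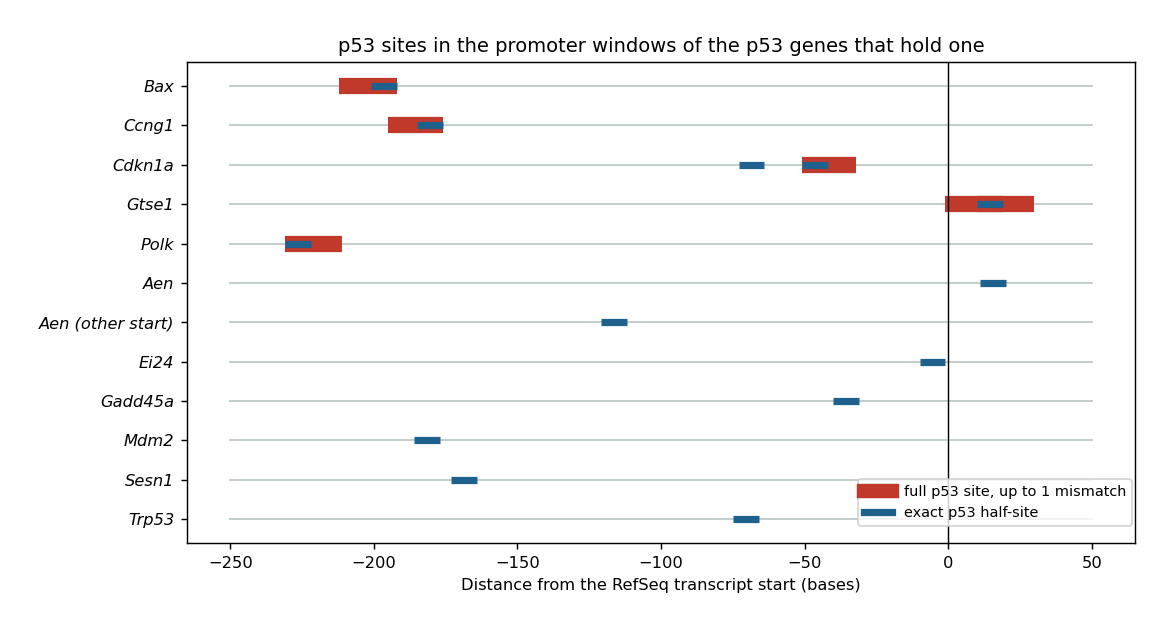
p53 sites in the RefSeq promoter windows of the 11 p53 genes that hold one, with a second row for another start of *Aen*. The x axis is the distance in bases from the transcript start (black line), thick red bars are full sites with at most 1 mismatch and thin blue bars exact half-sites. Full sites stand in the windows of *Bax*, *Ccng1*, *Cdkn1a*, *Gtse1* and *Polk*.

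The files give 1 FPKM value per group, combined by the authors from its 3 libraries, with lower and upper confidence bounds for KO-NTD, for KO-N and for a column headed Control. FPKM, the unit of these values, divides the fragments of a gene by its transcript length and by the mapped fragments of the library. There is no spread between samples and therefore no test: 2 groups are set side by side by the log2 fold of FPKM + 0.1, and a fold of at least 0.4 to either side (1.32-fold) was counted as past the threshold. In brackets after a fold stands an interval made from the authors' bounds read as 2 standard deviations, which covers the authors' estimate of the error only. The half-width of the bounds was 15.1% to 50.9% of the value in KO-NTD embryos and 15.4% to 51.0% in KO-N embryos, over the 33 genes whose mean in the KO groups reached the expression minimum of 0.5 FPKM. The deleted gene, *Scarb1*, had 3.12 FPKM in KO-NTD embryos, 3.34 FPKM in KO-N embryos, 12.4 FPKM in the column headed Control and 17.1 FPKM in WT embryos. The Y-linked genes *Ddx3y*, *Uty*, *Kdm5d* and *Eif2s3y* were above 0 in every group although the embryos are labelled female, at 1.61 to 5.12 FPKM in KO-NTD, 1.58 to 5.69 FPKM in KO-N and 3.68 to 10.5 FPKM in WT embryos, and their part in the results was not tested. WT values are listed only for genes that the authors marked as differing from WT, 12 of the 34, and come from tables scaled apart from the table of all genes. The column headed Control is not WT: for 10 of these 12 genes it lay between the KO-N and WT values, and neither the labels nor the paper says what it was made from.

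The mRNA of p53 itself was at nearly the same level in the 3 columns that list it. *Trp53* (chromosome 11, 69580359 to 69591873 of mm10) had 132 FPKM in KO-NTD embryos (bounds 112 to 152), 131 FPKM in KO-N embryos (111 to 151) and 130 FPKM in the column headed Control (110 to 150). The KO-NTD/KO-N log2 fold was 0.01 (-0.29 to 0.32), and that of KO-N over Control was also 0.01 (-0.30 to 0.32). *Mdm2*, the ligase that p53 both induces and is destroyed by, had 20.2 FPKM in KO-NTD (17.0 to 23.5), 19.3 FPKM in KO-N (16.2 to 22.4) and 19.0 FPKM in Control. *Mdm4*, which covers the activating domain of p53, had 27.3 FPKM in KO-NTD (23.1 to 31.6), 25.6 FPKM in KO-N (21.6 to 29.6) and 27.5 FPKM in Control. The bounds of the KO-NTD, KO-N and Control values overlap for all 3 genes, with KO-NTD/KO-N log2 folds of 0.07 (-0.26 to 0.39) for *Mdm2* and 0.09 (-0.22 to 0.40) for *Mdm4*. None of the 3 has a listed WT value.

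Another feedback gene stood apart from these. *Ccng1* (chromosome 11, 40748552 to 40755286) encodes cyclin G1, a p53 target that brings a phosphatase to Mdm2. It had 54.3 FPKM in KO-NTD embryos (45.8 to 62.9), 38.5 FPKM in KO-N embryos (32.4 to 44.6), 26.3 FPKM in Control (21.8 to 30.8) and 20.4 FPKM in WT embryos. No pair of these bounds overlaps, and the value was highest in KO-NTD, lower in KO-N and lowest in WT embryos. The log2 fold was 0.50 (0.18 to 0.81) for KO-NTD over KO-N, 0.92 for KO-N over WT and 1.41 for KO-NTD over WT. In bulk RNA of whole embryos, more RNA per cell and more cells that express a gene cannot be told apart. *Trp53inp1*, a stress protein that helps to activate p53, followed the same order of the KO groups with smaller gaps. It had 9.88 FPKM in KO-NTD (8.20 to 11.6), 7.79 FPKM in KO-N (6.38 to 9.19), 6.32 FPKM in Control and 6.36 FPKM in WT embryos. Its log2 fold was 0.34 (-0.01 to 0.69) for KO-NTD over KO-N and 0.63 for KO-NTD over WT, and only the bounds of KO-NTD and Control lie apart.

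**Figure D2:**
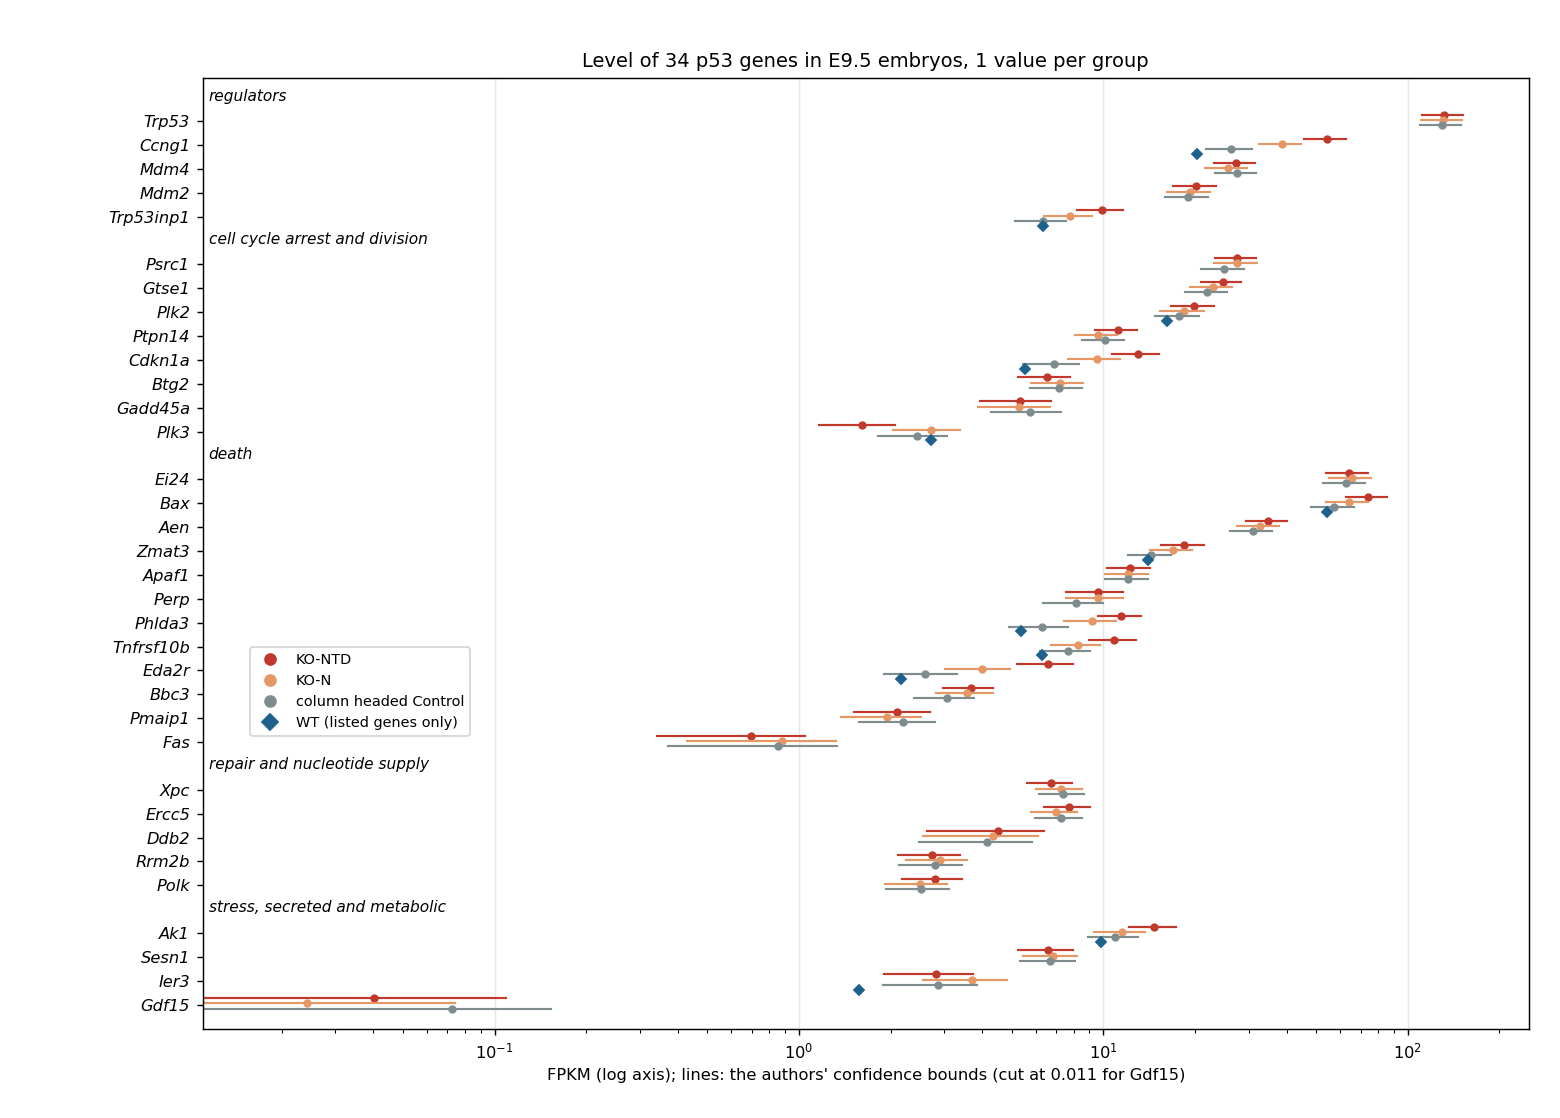
Level of the 34 p53 genes by role, in FPKM on a log axis, with 1 point per column: KO-NTD, KO-N, the column headed Control and, for the 12 listed genes, WT. Lines are the authors' confidence bounds, which WT lacks. *Trp53*, at 132 FPKM in KO-NTD against 131 in KO-N embryos, was the most abundant of the 34, and *Gdf15*, under 0.1 FPKM in each column, the least.

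Among the genes of cell cycle arrest and division, 1 was higher and 1 lower past the threshold in KO-NTD than in KO-N, and 6 of the 8 were neither. *Cdkn1a* (chromosome 17, 29090986 to 29100722) encodes p21, the inhibitor of cyclin-dependent kinases that carries most of the arrest downstream of p53. It had 13.0 FPKM in KO-NTD embryos (10.7 to 15.3), 9.51 FPKM in KO-N embryos (7.67 to 11.4), 6.88 FPKM in Control (5.44 to 8.33) and 5.51 FPKM in WT embryos. The order was the same as for *Ccng1*, but the bounds of neighbouring columns overlap and only those of KO-NTD and Control lie apart. Its log2 fold was 0.44 (0.07 to 0.81) for KO-NTD over KO-N, 0.78 for KO-N over WT and 1.22 for KO-NTD over WT.

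*Plk3* (chromosome 4, 117126813 to 117133952), a polo-like kinase of stress and division, went the other way. It had 1.61 FPKM in KO-NTD embryos (1.16 to 2.06), against 2.71 FPKM in KO-N (2.04 to 3.38), 2.44 FPKM in Control (1.81 to 3.07) and 2.71 FPKM in WT embryos. It was lower in KO-NTD than in all other columns, which had 2.44 to 2.71 FPKM, although its KO-NTD and KO-N bounds overlap slightly. The log2 fold was -0.71 (-1.22 to -0.21) for KO-NTD over KO-N and -0.71 for KO-NTD over WT. Its locus overlaps that of *Tctex1d4*, and nothing in the sources says whether the authors' counting told their reads apart.

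The remaining arrest and division genes varied little between the KO groups. *Plk2*, another polo-like kinase, had 19.9 FPKM in KO-NTD (16.7 to 23.2), 18.4 FPKM in KO-N (15.4 to 21.5) and 16.2 FPKM in WT embryos, with a KO-NTD over WT log2 fold of 0.30. *Ptpn14*, a phosphatase that restrains the growth regulator Yap, had 11.2 FPKM in KO-NTD, 9.61 FPKM in KO-N and 10.1 FPKM in Control. *Gtse1*, a microtubule-binding protein that takes p53 out of the nucleus, had 24.6 FPKM in KO-NTD, 22.9 FPKM in KO-N and 22.0 FPKM in Control. These 3 had KO-NTD/KO-N log2 folds of 0.11 to 0.21, each with an interval that includes 0. *Psrc1*, which acts on spindle microtubules, had 27.5 FPKM in KO-NTD, 27.6 FPKM in KO-N and 25.0 FPKM in Control. *Gadd45a*, a classic DNA damage gene, had 5.34 FPKM in KO-NTD, 5.29 FPKM in KO-N and 5.75 FPKM in Control. *Btg2*, an antiproliferative gene, had 6.51 FPKM in KO-NTD, 7.18 FPKM in KO-N and 7.14 FPKM in Control. Thus *Gadd45a* and *Btg2*, known p53 targets like *Cdkn1a*, had KO-NTD/KO-N log2 folds of 0.01 (-0.51 to 0.53) and -0.14 (-0.53 to 0.25). The *Gadd45a* locus overlaps that of *E230016M11Rik*.

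The 12 death genes are given by the step at which they act, and 1 of them, a receptor at the cell surface, was past the threshold between the KO groups. *Eda2r* (chromosome X, 97333841 to 97377209), a receptor of the TNF receptor family that binds ectodysplasin A2, had 6.57 FPKM in KO-NTD embryos (5.19 to 7.95), 3.98 FPKM in KO-N embryos (3.02 to 4.95), 2.60 FPKM in Control (1.91 to 3.30) and 2.16 FPKM in WT embryos. The KO-NTD bounds lie above those of KO-N and of Control, while those of KO-N and Control overlap. With log2 folds of 0.71 (0.26 to 1.15) for KO-NTD over KO-N, 0.86 for KO-N over WT and 1.56 for KO-NTD over WT, it had the highest fold of the 33 genes above the expression minimum in the first and of the 12 listed genes in the last. *Tnfrsf10b*, the mouse death receptor for the ligand TRAIL, had 10.9 FPKM in KO-NTD (8.98 to 12.8), 8.25 FPKM in KO-N (6.71 to 9.78), 7.63 FPKM in Control and 6.31 FPKM in WT embryos. Its KO-NTD/KO-N log2 fold, 0.39 (0.04 to 0.75), stood just under the threshold, and that of *Cdkn1a*, at 0.44, just over it. Its fold of KO-NTD over WT was 0.78. *Fas*, another death receptor, was near the lower end of detection with 0.695 FPKM in KO-NTD, 0.878 FPKM in KO-N and 0.850 FPKM in Control, and the interval of its KO-NTD/KO-N log2 fold ran from -1.20 to 0.60.

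*Phlda3* (chromosome 1, 135766085 to 135769134) encodes a small protein that competes with the survival kinase Akt for membrane lipids. It had 11.5 FPKM in KO-NTD embryos (9.59 to 13.3), 9.21 FPKM in KO-N embryos (7.44 to 11.0), 6.28 FPKM in Control (4.91 to 7.66) and 5.35 FPKM in WT embryos. Its values were high in both KO groups, whose bounds overlap, and the KO-NTD bounds lie above those of Control. The log2 fold was 0.31 (-0.04 to 0.67) for KO-NTD over KO-N, 0.78 for KO-N over WT and 1.09 for KO-NTD over WT.

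None of the genes of the mitochondrial step was past the threshold between the KO groups. *Bax* (chromosome 7, 45461695 to 45466898), whose protein opens the outer mitochondrial membrane, had 74.0 FPKM in KO-NTD (62.8 to 85.2), 64.0 FPKM in KO-N (53.8 to 74.2), 57.5 FPKM in Control (48.2 to 66.7) and 54.1 FPKM in WT embryos. The values keep the order of *Ccng1* and *Cdkn1a* but their bounds overlap, and the log2 fold was 0.21 (-0.10 to 0.52) for KO-NTD over KO-N and 0.45 for KO-NTD over WT. *Bbc3*, encoding Puma, had 3.66 FPKM in KO-NTD, 3.58 FPKM in KO-N and 3.07 FPKM in Control. *Pmaip1*, encoding Noxa, had 2.11 FPKM in KO-NTD, 1.94 FPKM in KO-N and 2.19 FPKM in Control. These are the BH3-only proteins through which p53 is best known to set off *Bax*, and their KO-NTD/KO-N log2 folds were 0.03 (-0.36 to 0.42) and 0.11 (-0.44 to 0.66). *Apaf1*, the scaffold on which cytochrome c activates caspases, had 12.2 FPKM in KO-NTD, 12.1 FPKM in KO-N and 12.1 FPKM in Control.

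The last 4 death genes act elsewhere in the cell. *Zmat3*, an RNA-binding zinc finger protein, had 18.5 FPKM in KO-NTD (15.5 to 21.4), 16.9 FPKM in KO-N (14.2 to 19.6), 14.4 FPKM in Control and 14.0 FPKM in WT embryos. Its log2 fold of KO-NTD over WT was just under the threshold, and its locus overlaps that of *4930429B21Rik*. *Aen*, a nuclease, had 34.8 FPKM in KO-NTD, 32.7 FPKM in KO-N and 31.0 FPKM in Control. *Perp*, a membrane protein of desmosomes, had 9.57 FPKM in KO-NTD, 9.58 FPKM in KO-N and 8.15 FPKM in Control. *Ei24*, a protein of the endoplasmic reticulum, had 64.0 FPKM in KO-NTD, 65.4 FPKM in KO-N and 62.5 FPKM in Control. The KO-NTD/KO-N log2 folds of these 4 ran from -0.03 to 0.13.

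**Figure D3:**
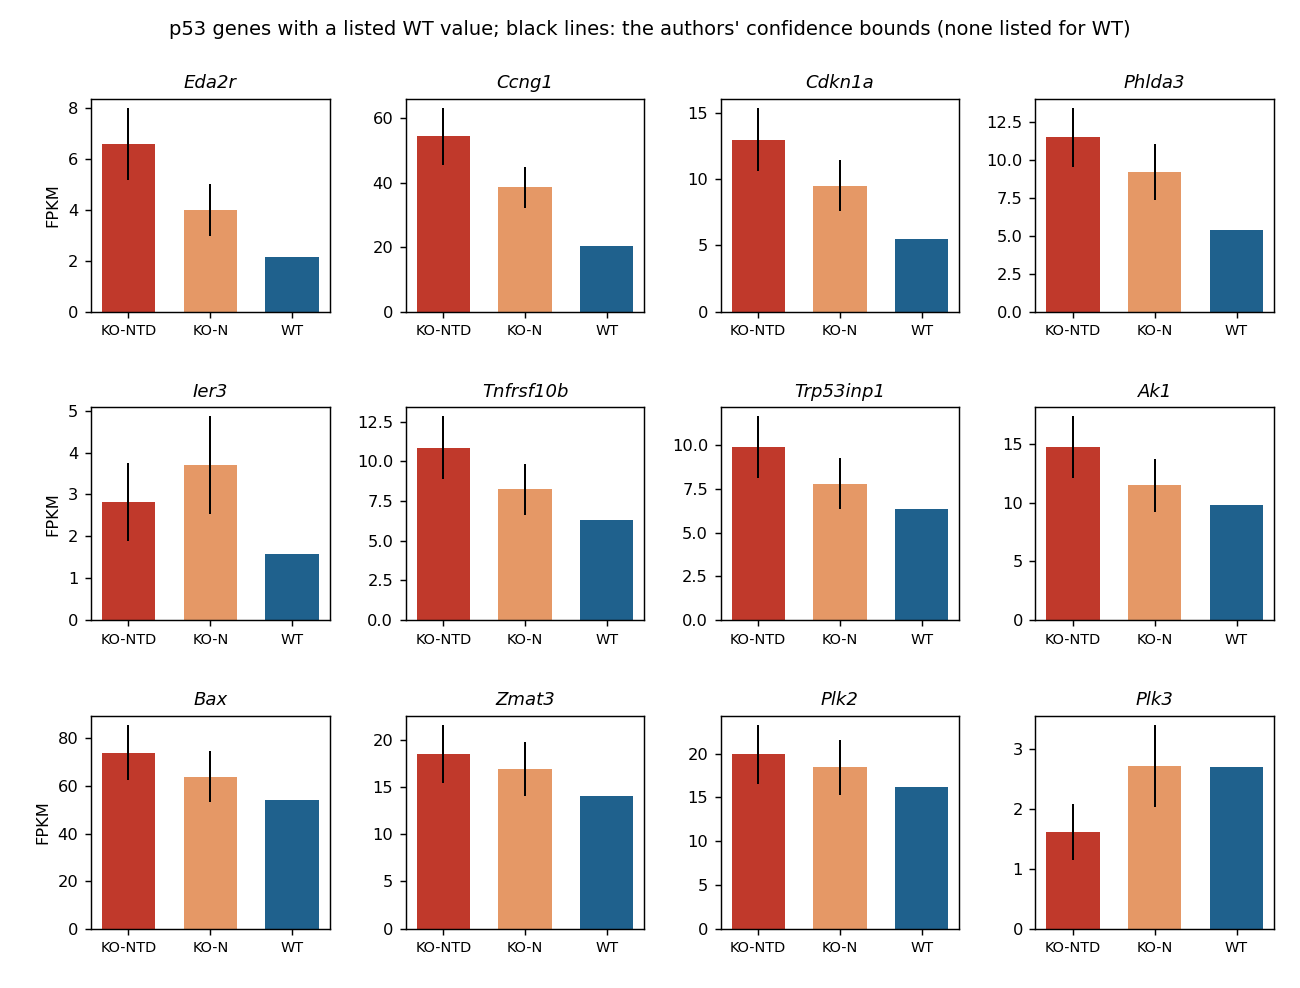
FPKM of the 12 p53 genes with a listed WT value in KO-NTD, KO-N and WT embryos, each axis starting at 0. Bars are the authors' group values, with WT from the table of KO-NTD and WT, and black lines the authors' confidence bounds, which WT lacks. *Eda2r*, *Ccng1*, *Cdkn1a* and *Phlda3* step down across KO-NTD, KO-N and WT, *Plk3* is low in KO-NTD alone, and *Ier3* is highest in KO-N.

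None of the 5 genes of repair and nucleotide supply was past the threshold in any comparison that has values for them, and none has a listed WT value. *Polk*, a polymerase that copies past damaged bases, had 2.80 FPKM in KO-NTD, 2.50 FPKM in KO-N and 2.52 FPKM in Control. *Rrm2b*, a p53-induced subunit of ribonucleotide reductase, had 2.74 FPKM in KO-NTD, 2.91 FPKM in KO-N and 2.79 FPKM in Control. Both stayed within the bounds of each other's columns. Of the genes of nucleotide excision repair, *Xpc*, which recognises damage, had 6.75 FPKM in KO-NTD, 7.26 FPKM in KO-N and 7.40 FPKM in Control. *Ercc5*, which cuts the damaged strand, had 7.69 FPKM in KO-NTD, 7.002 FPKM in KO-N and 7.25 FPKM in Control. *Ddb2*, which finds ultraviolet damage, had 4.50 FPKM in KO-NTD, 4.34 FPKM in KO-N and 4.16 FPKM in Control, with bounds that are wide for this level (2.64 to 6.37 in KO-NTD). Its locus overlaps that of *Acp2*. The KO-NTD/KO-N log2 folds of the 5 ran from -0.10 to 0.16.

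The stress, secreted and metabolic genes had no common direction. *Ier3*, an immediate early gene of stress and survival, had 2.82 FPKM in KO-NTD embryos (1.91 to 3.73), 3.70 FPKM in KO-N embryos (2.55 to 4.84), 2.86 FPKM in Control (1.89 to 3.84) and 1.58 FPKM in WT embryos. Its value was higher in both KO groups than in WT, with log2 folds of 1.18 for KO-N over WT and 0.80 for KO-NTD over WT, but unlike *Ccng1* or *Eda2r* it was highest in KO-N. The KO-NTD/KO-N log2 fold was -0.38 (-0.99 to 0.24), within the authors' error. *Ak1*, an adenylate kinase that balances cellular nucleotides, had 14.7 FPKM in KO-NTD (12.2 to 17.3), 11.5 FPKM in KO-N (9.32 to 13.7), 10.9 FPKM in Control and 9.82 FPKM in WT embryos. Its log2 fold was 0.35 (-0.00 to 0.71) for KO-NTD over KO-N and 0.58 for KO-NTD over WT. *Sesn1*, a sestrin that restrains mTORC1, had 6.60 FPKM in KO-NTD, 6.82 FPKM in KO-N and 6.69 FPKM in Control. *Gdf15*, a secreted stress hormone and p53 target, was the only one of the 34 genes under the minimum mean of 0.5 FPKM, with 0.0403 FPKM in KO-NTD, 0.0241 FPKM in KO-N and 0.0724 FPKM in Control and lower bounds at 0 in each.

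Between KO-NTD and KO-N embryos, 3 of the 33 genes above the minimum were higher past the threshold, *Eda2r*, *Ccng1* and *Cdkn1a*, and 1, *Plk3*, was lower. Of all 13569 genes above the same minimum, 3.41% were higher and 3.77% lower. On the log2 scale 21 of the 33 lay within 0.2 of 0, and the share of all genes this close to 0 was not computed. The median of the 33 was 0.09, against -0.02 over all genes. The authors' bounds of the 2 KO groups lay apart for *Ccng1* and *Eda2r*, both higher in KO-NTD, and for no gene in the other direction. Over all genes this held for 1.17% in the higher and 1.13% in the lower direction. By role, the median KO-NTD/KO-N log2 fold was 0.09 for regulators, 0.06 for arrest and division, 0.10 for death, 0.05 for repair and -0.05 for stress genes, and in every role but the regulators genes lay on both sides of 0.

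**Figure D4:**
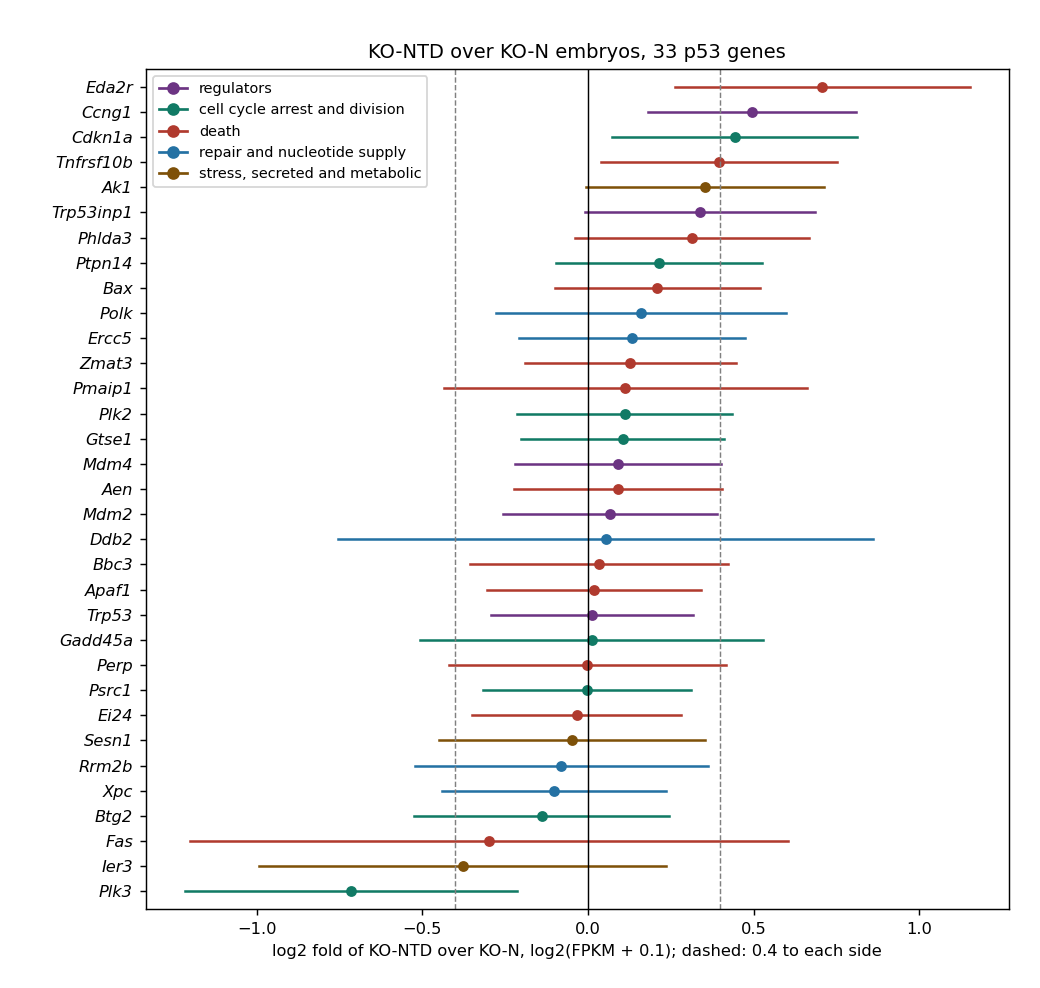
KO-NTD/KO-N log2 fold for the 33 p53 genes above the expression minimum, on the scale of FPKM + 0.1, coloured by role. Points are folds, lines the intervals from the authors' bounds, and dashed lines mark 0.4 to each side. The intervals of *Eda2r*, *Ccng1*, *Cdkn1a* and *Tnfrsf10b* lie above 0 and that of *Plk3* below it. Over all genes above the minimum, 2.01% had an interval above 0 and 2.55% below it.

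KO-N embryos were next set against the column headed Control, which has a value for every gene. This comparison shares the KO-N libraries with the one above. Whether Control also holds KO libraries is not stated. If it does, folds over Control are not independent of the KO values and may be smaller than folds over WT. Of the 33 genes, 4 were higher past the threshold and none was lower, where the background over all genes was 1.25% higher and 1.5% lower. They were *Eda2r* with a log2 fold of 0.59 (0.10 to 1.09), *Ccng1* with 0.55 (0.22 to 0.88), *Phlda3* with 0.55 (0.14 to 0.95) and *Cdkn1a* with 0.46 (0.06 to 0.86). The median over the 33 genes was 0.06, and over all genes 0.00. *Ccng1* was also the only one whose bounds lay apart, against 0.346% of all genes in that direction and 0.472% in the other. The folds of KO-NTD over Control, with the same 4 genes at 0.86 to 1.30, were past the threshold for 7 genes higher, adding *Trp53inp1* (0.64), *Tnfrsf10b* (0.50) and *Ak1* (0.42), and for *Plk3* lower (-0.57). With a pseudocount of 1 in place of 0.1, *Plk3* and *Ak1* were no longer past it. The background was 2.93% higher and 3.15% lower. The bounds lay apart for 5 of them (*Ccng1*, *Cdkn1a*, *Eda2r*, *Phlda3* and *Trp53inp1*), where 0.84% of all genes were apart in the higher direction.

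Against WT, only listed genes can be described. In KO-N embryos 5 p53 genes were listed, *Ier3*, *Ccng1*, *Eda2r*, *Cdkn1a* and *Phlda3*, and all 5 were higher than in WT by log2 folds of 0.78 to 1.18. Of the 116 listed genes above the minimum, 26.7% were higher and 59.5% lower past the threshold. In KO-NTD embryos 12 were listed, 9 higher and 1 lower, with *Zmat3* and *Plk2* under the threshold, where 34.3% of the 715 listed genes were higher and 39.0% lower. Over all 13569 genes, 5.58% had a listed WT value. The other 22 p53 genes, among them *Trp53*, *Mdm2*, *Mdm4*, all 5 repair genes, *Bbc3* and *Pmaip1*, were in neither table, and their WT level is not analysed here.

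**Figure D5:**
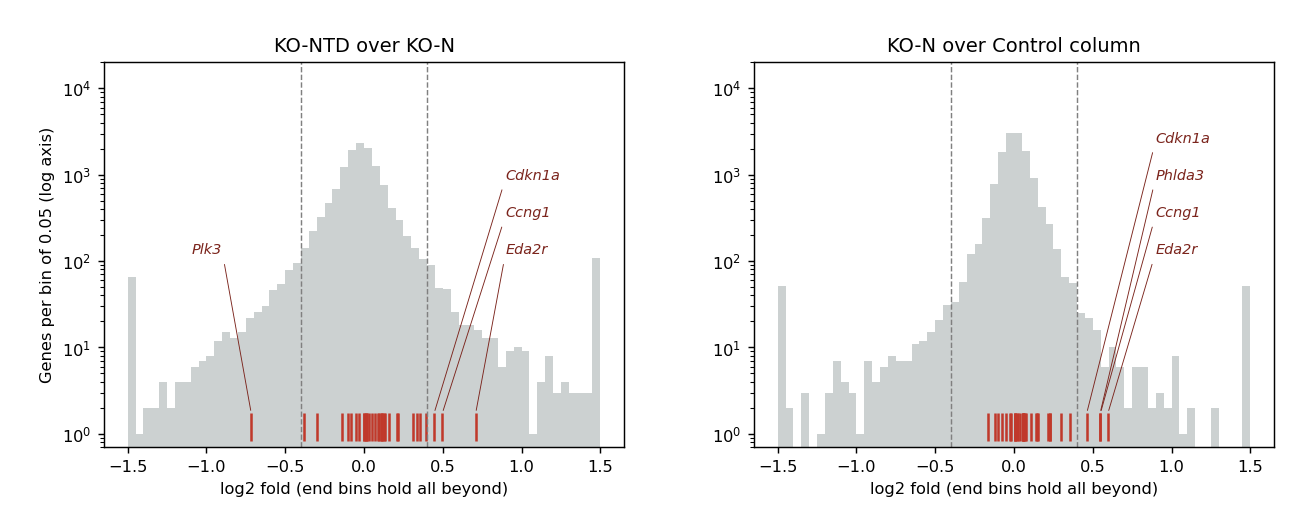
Log2 folds of the 33 p53 genes above the minimum (red ticks) over the distribution of all 13569 genes (grey bars of genes per bin of 0.05, log axis), for KO-NTD over KO-N on the left and KO-N over the column headed Control on the right. Dashed lines mark 0.4 to each side and genes past them are named. Most ticks lie near 0, with 3 higher and 1 lower on the left and 4 higher on the right.

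Other genes of the pathway were taken from lists of genes by function. Between the KO groups 3.41% of all genes were higher and 3.77% lower past the threshold, with a median log2 fold of -0.02. Short lists with none or 1 gene past the threshold stand near these shares. Of 14 genes that act on p53 or belong to its family, 12 were above the minimum and none was past the threshold between the KO groups, with a median log2 fold of 0.01. They include the kinases *Chek2*, which phosphorylates p53 after DNA breaks, at 11.5 FPKM in KO-NTD against 10.6 in KO-N embryos, and *Prkdc*, at 4.52 FPKM in KO-NTD against 4.19 in KO-N embryos. *Trp63*, a relative of p53 needed for skin, had 3.53 FPKM in KO-NTD against 4.13 in KO-N embryos, the largest fold of these 12 at -0.22. *Cdkn2a*, whose Arf product blocks Mdm2, was under the minimum and so not counted, and was named after its values were seen. It had 0.611 FPKM in KO-NTD, 0.145 FPKM in KO-N, 0.312 FPKM in Control and 0.234 FPKM in WT embryos. At these low levels its log2 fold was 1.54 (0.36 to 2.72) for KO-NTD over KO-N and 1.09 for KO-NTD over WT.

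Of 18 further p53 targets, 17 were above the minimum and 1 was past the threshold between the KO groups, *Dcxr*, a sugar reductase, with 3.63 FPKM in KO-NTD, 2.43 FPKM in KO-N, 2.01 FPKM in Control and 1.86 FPKM in WT. Its KO-NTD/KO-N log2 fold was 0.56 (-0.06 to 1.18), and the median of the 17 was 0.03. *Sesn2*, the stress-induced sestrin, had 10.2 FPKM in KO-NTD, 8.45 FPKM in KO-N, 7.26 FPKM in Control and 6.69 FPKM in WT embryos, the same order as *Ccng1*. *Trp53i11* was lower in KO-NTD than in the other columns, with 22.7 FPKM in KO-NTD, 28.2 FPKM in KO-N, 27.1 FPKM in Control and 27.8 FPKM in WT embryos. Against WT, 6 of the list were listed for KO-NTD embryos, and listed genes are those the authors marked as differing. Of these 6, 4 were higher past the threshold and none was lower. Of all 715 listed genes above the minimum, 34.3% were higher and 39.0% lower. *Tap1*, a peptide transporter, was among the 4 at a low level, 0.575 FPKM in KO-NTD against 0.238 in WT. The others were *Dcxr* with a log2 fold of 0.94, *Sesn2* with 0.60 and *Sfn*, a 14-3-3 protein of arrest, with 0.49.

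None of 16 division genes known to be repressed through p21 was past the threshold, which is near the background. Over all genes, 3.41% were higher and 3.77% lower for KO-NTD over KO-N, and 1.25% and 1.5% for KO-N over Control. The median log2 fold of the 16 was -0.03 for KO-NTD over KO-N, -0.04 for KO-N over Control and -0.09 for KO-NTD over Control. The medians over all genes were -0.02, 0.00 and -0.02. The most different of them between the KO groups, *Aurkb*, a mitotic kinase, had 46.3 FPKM in KO-NTD, 50.6 FPKM in KO-N and 50.9 FPKM in Control. None of 15 general apoptosis genes, caspases and Bcl2 relatives not chosen as p53 targets, was past the threshold either, with a median of -0.09 for KO-NTD over KO-N and folds of -0.24 (*Casp6*) to 0.21 (*Bid*). The ATF4 pathway, another stress response that shares targets with p53, had 10 genes above the minimum and none past the threshold between the KO groups. Its target *Trib3* had 2.48 FPKM in KO-NTD, 3.09 FPKM in KO-N, 1.46 FPKM in Control and 0.813 FPKM in WT embryos, with a log2 fold of 1.81 for KO-N over WT, and like *Ier3* it was highest in KO-N.

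Markers of cell types also differed between the same groups. All 10 markers of visceral endoderm, the layer around the embryo and in the yolk sac, were higher past the threshold in KO-NTD than in KO-N, and their summed level was 140.7 FPKM in KO-NTD, 25.8 FPKM in KO-N and 62.2 FPKM in Control. Neuron markers were lower in 8 of 10, with sums of 34.02 FPKM in KO-NTD, 52.7 FPKM in KO-N and 46.3 FPKM in Control, and primitive erythroid markers in 6 of 10, with sums of 3056 FPKM in KO-NTD, 4678 FPKM in KO-N and 5564 FPKM in Control. No marker was at 0 in any of these columns. Their part in the p53 values was not tested. Of 10 reference genes, none was past the threshold between the KO groups, and their sum was 6764 FPKM in KO-NTD, 6631 FPKM in KO-N and 6563 FPKM in Control.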

How the data were processed

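Strand-specific poly-A RNA-seq was done on 9 pools of 3 embryos. The submitters' processing notes name TopHat2 0.7, Cufflinks 2.2.1 and the genome build mm10. The authors deposited FPKM values, 1 per group combined from 3 libraries, with confidence bounds for KO-NTD, KO-N and a column headed Control. The deposited tables carry no depth, so precision is given here through these bounds. The authors' comparison tables also hold their fold changes, test values, p-values and q-values for genes marked significant, which were not used. Only group values were taken from them, and KO-N over WT and KO-NTD over WT were each computed within 1 table, since these tables are scaled slightly differently (a median ratio to the table of all genes of 1.00362 and 1.00151).

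Of 24357 lines, 27 with names turned into dates were left out, and the 13569 genes whose mean of KO-NTD and KO-N reached 0.5 FPKM were counted. Folds were log2 ratios of FPKM + 0.1, past the threshold at 0.4. Intervals are 1.96 standard errors to each side, with the bounds read as 2 standard deviations. The planned limma fit per library could not be run on 1 value per group. Start positions were found to count from 0, because adding 1 gave the RefSeq start for 11857 genes, and were written from 1. Scripts used Python 3.11.15, pandas 2.3.3 and numpy 2.4.6 and were tested on simulated data.

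The genes and lists were chosen with earlier results of these data known. All 34 genes were named, with full values for those past the threshold in any comparison and for *Trp53*, *Mdm2* and *Mdm4*, and of each other list at most 4 genes from those with the largest folds in the comparison described (between the KO groups or against WT), where the mean reached 1 FPKM. *Tap1*, under that mean, and *Cdkn2a* were exceptions, named after their values were seen. Other folds, pseudocounts, filters, centring and the authors' bounds were tried as alternatives.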

Additional observations from a re-analysis of the deposited data

How the results depend on the processing

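With 1 value per group there is no spread between samples, and *Fas*, *Ddb2* and *Ier3* have the widest bounds of the 33 genes. Under other pseudocounts, filters, centring and calls, 42 of 49 counts and medians stayed, counts within 1.5 times. These include 10 of 10 medians, where staying meant moving by less than the median standard error of the single-gene folds. That margin was larger than the medians themselves, so the medians could hardly fail. For 11 single genes, 33 of 33 folds kept their direction and moved by less than 1 standard error. They were varied only by pseudocount and centring, which change folds at these levels little, so they could hardly fail either. The other 7 of the 49, all counts, depend on how strict the call is. For KO-NTD over KO-N, 4 p53 genes were past a log2 fold of 0.4, 9 past 0.3, 2 past 0.6, and 2 had bounds that do not overlap. For KO-N over Control the 4 became 0 past 0.6 and 1 by bounds. For KO-NTD over Control the 8 became 5 past 0.6 and 5 by bounds. Among the counts that stayed, a pseudocount of 1 made this last one 6, without *Plk3*, the lower one, and *Ak1*, and with no filter *Gdf15* was lower in KO-N than in Control, a count of 5. The count of KO-N over WT was 5 under every setting. It could hardly move, because its log2 folds of 0.78 to 1.18 exceed each threshold tried. Fewer genes can pass a higher threshold by construction. Centring on the median of all genes made the first count 5, by adding *Tnfrsf10b*. Intervals as a call, the comparison of KO-NTD with Control and the single-gene folds were added after seeing the data. Centring was not run against WT, where listed genes were selected for differing, and no library could be left out. No paired analysis was possible because the columns hold 1 value per group and carry no replicate numbers.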
